A study of Mus musculus with 4 samples.

Results

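The genes described here are 10 Wnt ligand genes, Wnt2, Wnt3, Wnt3a, Wnt4, Wnt5a, Wnt6, Wnt7a, Wnt7b, Wnt10a and Wnt10b, taken by name from the mouse genes that RefSeq places on GRCm38.p6. All 10 were found among the 21436 protein-coding genes of that assembly whose strand was known. Chromatin was profiled by bulk ATAC-seq, which maps the stretches of DNA that the Tn5 transposase can reach, in non-irradiated organoids grown from submandibular salivary glands of C57BL/6 mice. The labels give 2 samples of passage 1 and 2 of passage 2, with 1 mouse of 12 weeks and 1 of 3 months at each passage. These ages are about the same, written in different units. The study's methods describe mSGOs (mouse salivary gland organoids) from female mice, and for ATAC-seq from 4 different mice. All were cultured in Matrigel, a basement membrane extract, with EGF, FGF2, insulin, dexamethasone, the kinase inhibitor Y27632, and media conditioned with R-spondin1 and with Wnt3a, so every group received Wnt ligand from outside. The deposited data are 1 list of 69545 lines, which describe 32011 distinct regions. Neither number matches the size of the consensus file of all samples that the methods describe, so this list may not be that file, and a longer list could hold regions at loci called closed here. The list gives no values per sample, so passages and age labels cannot be compared, and the depth of each sample and the spread between replicates are unknown. A locus is called open here when the list holds a region there, and a locus without a region is one where the list holds none. The depth is unknown. The IDR scores, which rate reproducibility, start at 540 in the list, so called regions with lower scores may have been left out.

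Wnt ligands are secreted glycoproteins that carry a lipid added by Porcn, an acyltransferase of the endoplasmic reticulum, and are taken to the cell surface by the carrier Wls. They bind Frizzled receptors, with Lrp5 or Lrp6 for the route that stabilises beta-catenin and acts through TCF and LEF factors, or with receptors such as Ror2 for routes that do not need beta-catenin. R-spondins, which bind Lgr receptors, keep Frizzled on the surface by removing the ligases Znrf3 and Rnf43. In developing glands, ligands come from the epithelium as well as from the mesenchyme around it.

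None of the 10 ligand genes had an open 5′ end. The midpoint of a region fell 1 kb or less from the outermost 5′ end in 0 of the 10 genes, while 38.3% of all 21436 protein-coding genes had such a region. A region further inside the gene was found in 3 of the 10 (25.6% of all protein-coding genes), namely Wnt4, Wnt6 and Wnt7b. This count was 0 among the 16006 regions with the lowest q-values (15.2% of all protein-coding genes) and 0 among regions with an IDR score of 1000 (14.0%). Outside the gene but within 50 kb of either end, 7 of the 10 had a region (71.0% of all protein-coding genes), and 3 had one in each of these stricter sets (56.4% and 53.5%). In all, 8 ligand loci held a region in the gene or within 50 kb (78.5% of all protein-coding genes), and the loci of Wnt3 and Wnt5a held 0. The 10 genes had a median of 2.5 regions per locus, against 3.0 over all protein-coding genes, and a median distance from the 5′ end to the nearest region of 18.8 kb, against 7.62 kb. These are counts within 1 list, given without a test.

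**Figure D1:**
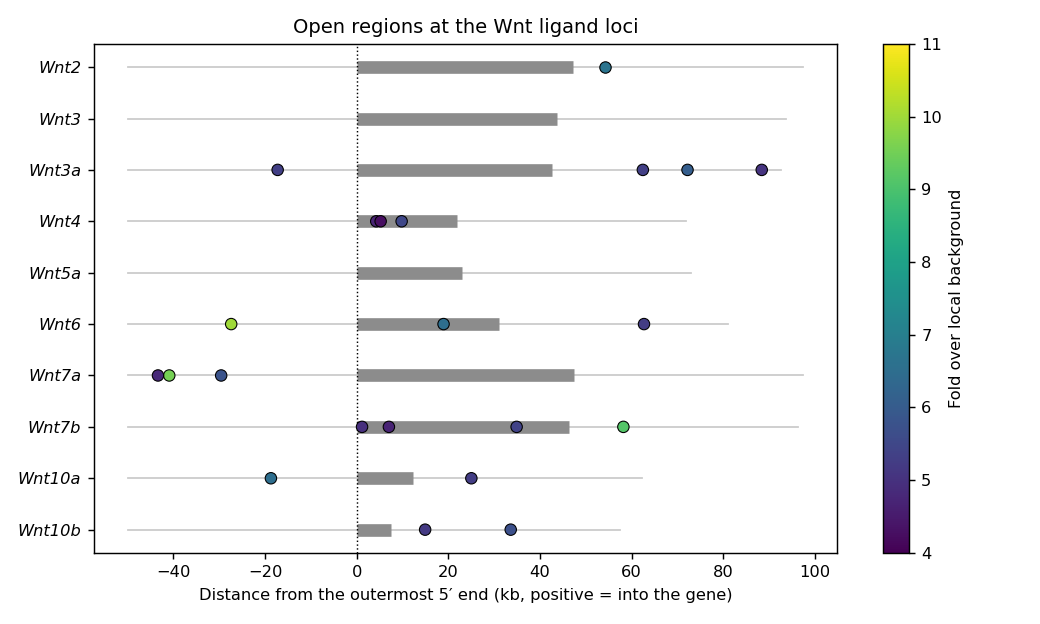
Positions of the open regions at the 10 ligand loci, as kb from the outermost 5′ end with positive values in the direction of transcription. Thick bars are genes, thin lines the 50 kb on either side, and each point is a region coloured by its fold over the local background; no point sits at 0, and the rows of Wnt3 and Wnt5a are empty.

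The promoters themselves were rich in G and C. A RefSeq promoter table of GRCm38.p6, which holds the bases before annotated start sites, matched 7 of the 10 ligand genes with 1 start each; Wnt5a, Wnt7b and Wnt10a were not matched. In the 250 bases before the start, the share of G and C was 63.6% for Wnt2, 66.8% for Wnt10b, 68.0% for Wnt3, 77.6% for Wnt7a, 79.6% for Wnt6, 85.2% for Wnt4 and 87.6% for Wnt3a, and the median over 21262 starts of protein-coding genes was 55.6%. Taking as CpG-rich a window with at least 50% G and C and an observed-to-expected CpG ratio of at least 0.6, 6 of the 7 ligand promoters were CpG-rich, Wnt10b with a ratio of 0.52 being the exception. Over all protein-coding genes, 8826 of the 21262 starts were CpG-rich. A region lay within 1 kb of 0 of the 6 CpG-rich ligand starts, whereas 68.2% of the 8826 CpG-rich starts of protein-coding genes had one. By G and C alone, a region lay within 1 kb of 61.1% of starts with 60 to 65%, where Wnt2 falls, of 63.2% with 65 to 70%, where Wnt3 and Wnt10b fall, and of 50.4% of the 1071 starts with 75% or more, where Wnt3a, Wnt4, Wnt6 and Wnt7a fall, beside 40.2% of all 21262 starts. Whether the recovery of very GC-rich fragments had a part in this was not tested.

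The promoters of the ligand supplied in the medium, Wnt3a, and of Wnt4 and Wnt6, the matched ligand genes with the nearest regions, are shown against those of the receptors Fzd5 and Lgr4, whose 5′ ends were open with the highest folds of their lists. Each is the 250 bases before the RefSeq start on the coding strand of GRCm38.p6, written 5′ to 3′ and ending at the last base before the start. Capitals mark matches, on either strand, to the motifs of factor families searched, which may overlap each other.
Wnt3a: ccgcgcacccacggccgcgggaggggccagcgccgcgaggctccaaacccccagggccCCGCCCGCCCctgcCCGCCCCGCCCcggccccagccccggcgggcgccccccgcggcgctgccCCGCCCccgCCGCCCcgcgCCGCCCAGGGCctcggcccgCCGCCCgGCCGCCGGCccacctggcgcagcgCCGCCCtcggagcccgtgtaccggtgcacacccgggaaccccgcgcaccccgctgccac
Wnt4: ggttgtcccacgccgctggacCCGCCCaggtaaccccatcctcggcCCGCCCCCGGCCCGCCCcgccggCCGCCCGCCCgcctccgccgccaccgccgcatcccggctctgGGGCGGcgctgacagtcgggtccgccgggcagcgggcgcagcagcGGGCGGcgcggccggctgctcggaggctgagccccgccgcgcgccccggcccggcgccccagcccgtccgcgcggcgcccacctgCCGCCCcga
Wnt6: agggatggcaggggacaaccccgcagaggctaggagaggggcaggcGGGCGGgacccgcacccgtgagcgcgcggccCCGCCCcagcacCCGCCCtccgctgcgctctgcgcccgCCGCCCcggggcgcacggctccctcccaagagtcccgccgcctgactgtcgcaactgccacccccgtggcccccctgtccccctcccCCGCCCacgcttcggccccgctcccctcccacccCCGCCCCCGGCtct
Fzd5: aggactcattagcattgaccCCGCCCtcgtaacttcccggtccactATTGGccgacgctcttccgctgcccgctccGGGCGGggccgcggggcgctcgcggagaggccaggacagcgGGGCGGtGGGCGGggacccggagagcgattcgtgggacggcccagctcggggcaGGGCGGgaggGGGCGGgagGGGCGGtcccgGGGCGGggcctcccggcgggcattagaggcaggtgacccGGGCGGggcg
Lgr4: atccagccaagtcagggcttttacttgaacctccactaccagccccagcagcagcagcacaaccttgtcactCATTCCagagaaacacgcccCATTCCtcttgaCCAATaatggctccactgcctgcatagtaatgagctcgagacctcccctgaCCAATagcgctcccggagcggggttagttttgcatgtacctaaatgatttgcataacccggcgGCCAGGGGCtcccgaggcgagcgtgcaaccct
Of each window, 0 bases lay in a region for Wnt3a, Wnt4 and Wnt6, and all 250 for Fzd5 and Lgr4. The GC box GGGCGG, bound by KLF and SP factors, was matched 9 times in Wnt3a, 8 times in Wnt4, 6 times in Wnt6, 9 times in Fzd5 and 0 times in Lgr4. Wnt3a, with no region there, and Fzd5, with one, held the same number. These promoters were chosen after their values were seen, and whether GC boxes go with open 5′ ends was not tested. Over the 7 ligand promoters, GGGCGG was found in 6 (32.7% of 32851 promoters of the table, and 71.9% of its CpG-rich ones) and the AP2 motif GCCNNNGGC in 6 (13.7% and 26.7%). The NF-Y motif CCAAT was found in Wnt2 and Wnt3 (33.8% and 32.9%), and also in Fzd5 and Lgr4. In 0 of the 7 ligand windows were found the TEAD motif GGAATG (12.6% of all promoters and 8.36% of CpG-rich ones), the RUNX motif TGTGGT (14.0% and 7.74%), the SOX motif AACAAT (9.42% and 3.06%), the FOX motif TGTTTAC (3.17% and 1.59%), the AP-1 motif TGANTCA (6.75% and 2.69%) and the TCF/LEF motif CTTTGA (13.8% and 7.37%). A match describes letters in a window and not binding.

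**Figure D2:**
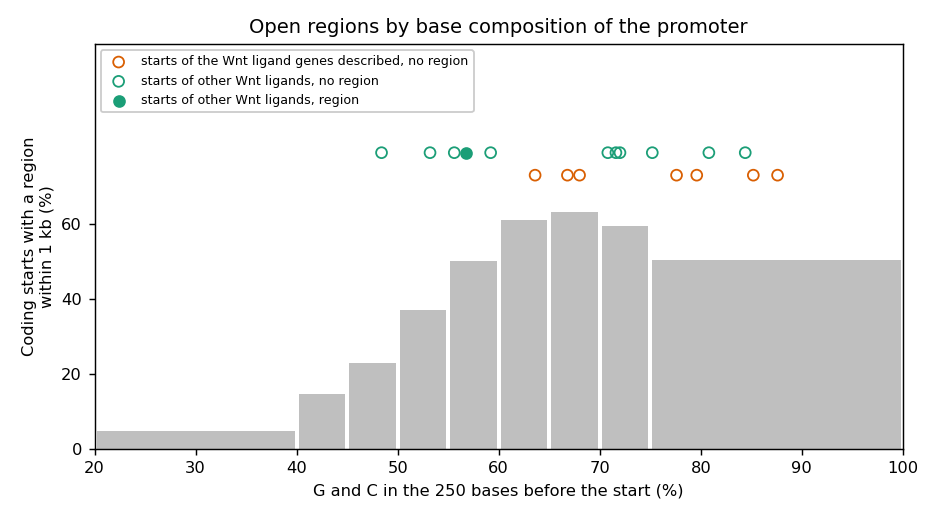
Share of RefSeq starts of protein-coding genes with an open region within 1 kb (bars, %), by the share of G and C in the 250 bases before the start (%); the first bar holds all starts under 40% and the last all from 75%. Circles mark starts of Wnt genes at their own base composition, filled where a region lay within 1 kb, and their height carries no value; only 1 circle, a start of Wnt11, is filled.

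Wnt7b, a ligand of lung and other branching epithelia, came closest to an open 5′ end. Its gene held 3 regions, of which the first, at chr15:85580522-85580792, had its midpoint 1.16 kb inside the 5′ end and just missed the distance of 1 kb. That region had a fold of 4.94 over the local background, which placed it at percentile 11.4 of the list by fold, and an IDR score of 643 on a scale on which the list runs from 540 to 1000. A long noncoding RNA gene, AU022754, also starts within 1 kb of this region, and the signal cannot be told apart between the 2 genes. The other regions lay 7.02 kb (chr15:85574652-85574943, 4.67-fold) and 34.9 kb (chr15:85546657-85547175, 5.39-fold) inside the gene. The strongest region of the locus was outside the gene, 11.8 kb beyond its 3′ end at chr15:85523315-85523923, with a fold of 9.13 and an IDR score of 1000. It lay 58.2 kb from the 5′ end of Wnt7b and 20.39 kb from that of the neighbouring gene 7530416G11Rik. A further region with a fold of 10.2 lay 52.8 kb upstream, at chr15:85634311-85634918, just outside the distance of 50 kb. Positions are those of the deposited list, read as GRCm38.

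Wnt4, needed for kidney tubule formation and for mammary side branching, also held 3 regions, all in the first 10 kb of the gene and none outside it. They lay 4.26 kb (chr4:137281743-137282055), 5.22 kb (chr4:137282728-137282980) and 9.80 kb (chr4:137287268-137287601) from the 5′ end, with folds of 4.69, 4.25 and 5.49. By fold, these stood at percentiles 7.4, 3.3 and 21.1 of the list. No 5′ end of another protein-coding gene lay within 50 kb of Wnt4. Upstream of the gene, the nearest region was 112 kb away. Whether regions inside genes fall in exons or introns was not examined.

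Wnt6 and Wnt10a are neighbours on chromosome 1, transcribed in the same direction, and their loci share regions. Both ligands are made by ectodermal epithelia, and Wnt10a is needed for teeth and hair. The region at chr1:74773139-74773437 lay inside Wnt6, 18.9 kb from the outermost 5′ end of its RefSeq models but only 1.40 kb downstream of the start in the promoter table, and 18.7 kb upstream of Wnt10a. With a fold of 6.51 and an IDR score of 989 it was the strongest of the 7 regions inside ligand genes. A region at chr1:74816790-74817292, 25.02 kb downstream of the 5′ end of Wnt10a, had a fold of 5.24 and an IDR score of 599, and is counted at both genes. The highest fold at any of the 10 loci, 10.0 with an IDR score of 1000, belonged to chr1:74726685-74727191, 27.4 kb upstream of the 5′ end of Wnt6. This region lay inside Cyp27a1, which encodes a sterol hydroxylase, 13.8 kb from its 5′ end. Wnt10a itself held 0 regions.

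Wnt3a, the ligand given with the medium and known for its part in forming paraxial mesoderm, had 4 regions within 50 kb, and each lay closer to the 5′ end of another gene. At chr11:59202115-59202583 (5.06-fold) a region lay 0.14 kb from the 5′ end of Mrpl55, which encodes a mitochondrial ribosomal protein, and at chr11:59228134-59228471 (5.29-fold) another lay 0.04 kb from that of Arf1, a GTPase of vesicle transport. A region at chr11:59218398-59218697 (6.05-fold) was inside Arf1. The only region upstream of Wnt3a, at chr11:59307911-59308110, was 17.3 kb away and 1.16 kb inside the neighbouring ligand gene Wnt9a, with a fold of 5.30 and an IDR score of 762. The gene Wnt3a held 0 regions over its 42.7 kb.

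Wnt10b, which favours bone over fat formation, held 0 regions in its 7.5 kb and had 2 downstream. The nearer, at chr15:98763064-98763496 (5.20-fold), was 14.9 kb from the 5′ end of Wnt10b and 0.16 kb from that of Arf3, a GTPase related to Arf1. The other, at chr15:98744358-98744827 (5.71-fold), lay inside Arf3. Thus both regions counted at Wnt10b were in or at the neighbouring Arf3.

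Wnt7a, which patterns the limb from its ectoderm, held 0 regions in its 47.4 kb, and its 3 regions all lay upstream. Those at chr6:91440828-91441064 (5.80-fold) and chr6:91454602-91454860 (4.82-fold) had low IDR scores of 585 and 564. The one at chr6:91452084-91452469, 40.9 kb upstream, had a fold of 9.53 and an IDR score of 1000. The weaker region at 29.6 kb upstream was also at the 5′ ends of 2 long noncoding RNA genes, within 1 kb. The regions at 40.9 and 43.4 kb upstream were nearer to the 5′ end of Chchd4, a gene of mitochondrial protein import, at 21.15 and 18.69 kb. No other protein-coding 5′ end lay within 50 kb of Wnt7a.

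Wnt2, a ligand of lung mesenchyme, had 1 region, at chr6:17978361-17978708, 6.94 kb beyond the 3′ end of the gene. Its fold was 6.70 and its IDR score 851. Upstream of Wnt2 the next region was 238 kb away, inside Cftr, the chloride channel gene, with a fold of 16.8 and an IDR score of 1000.

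Wnt3 and Wnt5a had no region in the gene or within 50 kb. Wnt3, needed for the primitive streak, stood 76.1 kb from the nearest region, chr11:103697885-103698193 (5.10-fold), which lay 0.32 kb from the 5′ end of Gosr2. The adjacent ligand gene on that side, Wnt9b, had 0 regions in the gene as well. Wnt5a, the main ligand of routes that do not need beta-catenin, was the most isolated of the 10: the nearest region, chr14:28808123-28808558 (5.79-fold), was 304 kb downstream of its 5′ end, and the nearest on the other side was 642 kb upstream. Only 8.3% of protein-coding genes had a 5′ end further from a region than Wnt5a.

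In order of the distance from 5′ end to nearest region, the genes ran from Wnt7b (1.16 kb), Wnt4 (4.26 kb) and Wnt10b (14.9 kb) over Wnt3a (17.3 kb), Wnt10a (18.7 kb), Wnt6 (18.9 kb) and Wnt7a (29.6 kb) to Wnt2 (54.2 kb), Wnt3 (76.1 kb) and Wnt5a (304 kb). At the start in the promoter table instead, Wnt6 moved to 1.40 kb and second place. There is no replicate spread to say which neighbours in this order differ.

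Most regions at these loci were below the median of the list in fold. The 20 distinct regions had a median fold of 5.34 (range 4.25 to 10.0), and the 7 inside ligand genes a median of 4.94 (range 4.25 to 6.51). All 32011 regions of the list had a median of 7.11, and the 23837 of them away from protein-coding 5′ ends, by over 1 kb, a median of 6.87. Of the 20, 3 had a fold above the list median, and the same number had an IDR score of 1000, which 45.1% of all regions and 40.9% of those away from 5′ ends reached. All 3 lay outside the ligand genes, in the flanks of Wnt6, Wnt7a and Wnt7b, and each was nearer to the 5′ end of another protein-coding gene (Cyp27a1, Chchd4 and 7530416G11Rik). The median −log10 q-value was 16.8 at the ligand loci and 26.4 in the list, and the median width was 336 bp against 402 bp. Of the 20 regions, 3 were at 5′ ends of other protein-coding genes, within 1 kb (Mrpl55, Arf1 and Arf3), and 10 had a gene among the 10 described here as their nearest protein-coding 5′ end.

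**Figure D3:**
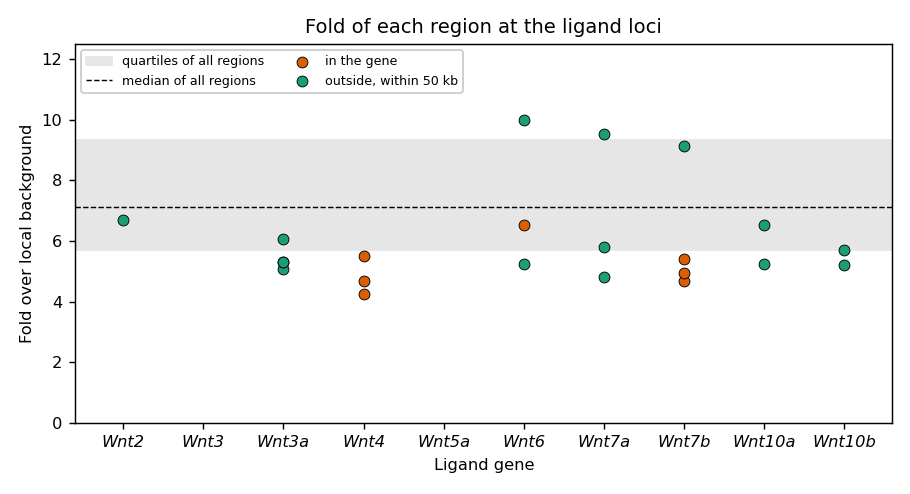
Fold over the local background (linear axis) of each region at the 10 loci, by ligand gene; regions shared by Wnt6 and Wnt10a are drawn at both, and 2 points of Wnt3a at 5.29 and 5.30 lie on each other. The band spans the quartiles of all regions, 5.70 to 9.32, and the dashed line is their median; the 7 regions in genes all lie below that line.

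The other 9 Wnt genes of the mouse, Wnt1, Wnt2b, Wnt5b, Wnt8a, Wnt8b, Wnt9a, Wnt9b, Wnt11 and Wnt16, gave the same count at the outermost 5′ end: 0 of 9 had a region within 1 kb, so that 0 of all 19 had one. Over all protein-coding genes, 38.3% had a region within 1 kb of the outermost 5′ end. Inside the gene, Wnt5b held 6 regions, and Wnt9a and Wnt11 held 1 each. These were 3 of the 9 genes, beside 25.6% of all protein-coding genes with a region inside. The Wnt5b regions included chr6:119526424-119527036 (10.1-fold) and chr6:119535900-119536645 (8.74-fold), both with an IDR score of 1000, which no region inside the 10 ligand genes reached. Wnt11 was the exception once other starts were counted, since the region at chr7:98838014-98838191 (4.68-fold) lay 0.74 kb from its second start in the promoter table. None of the 7 matched members of the 10 had a region within 1 kb of its RefSeq start (42.0% of 17491 protein-coding genes did), and 1 of 7, Wnt6, had one within 2 kb (44.0%).

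Genes that process and receive the ligands were read from the same list, beside the 38.3% of all protein-coding genes with an open 5′ end. Porcn and Wls, the acyltransferase and the carrier, both had a region at the 5′ end, with folds of 5.46 and 4.12, and Wls held 4 more, of which chr3:159885087-159885711 reached 15.3. Of 16 Frizzled and co-receptor genes, 9 had an open 5′ end, with the highest folds at Fzd5 (13.1), Fzd4 (12.4), Fzd7 (9.70) and Fzd8 (9.29). Lrp6 (6.89) and Ror1 (6.46) were also open, whereas Fzd6, Fzd9, Fzd10, Lrp5, Ror2, Ryk and Ptk7 were not. Of the 5 genes of R-spondin receptors and their ligases, Lgr4 (15.4), Rnf43 (8.47) and Znrf3 (5.92) were open, and Lgr4 held 11 further regions in the gene. Lgr5, a marker of intestinal stem cells, stood 129 kb from the nearest region. Among beta-catenin complex and TCF genes, 8 of 13 were open, led by Tcf7l2 (10.8), Gsk3b (10.8), Csnk1a1 (10.8) and Apc (7.83). Tcf7l1 (6.74) was also open, whereas Axin1, Axin2, Dvl2, Tcf7 and Lef1 were not. Axin2, a common target gene of the route, had regions 2.58 and 2.97 kb inside the gene but 0 at the outermost 5′ end.

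Few genes of the other secreted factors had an open 5′ end. All 4 R-spondin genes lacked a region there. Of the 11 secreted inhibitors, Wif1 (6.57) and Sfrp1 (5.94) had one, whereas Dkk1 and Dkk2 stood 519 and 415 kb from the nearest region. Over all 51 genes of these pathway lists, 24 had an open 5′ end (47.1%), beside 38.3% of all protein-coding genes. The differences between the lists were not tested, since the genes were chosen with earlier results of these data known.

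**Figure D4:**
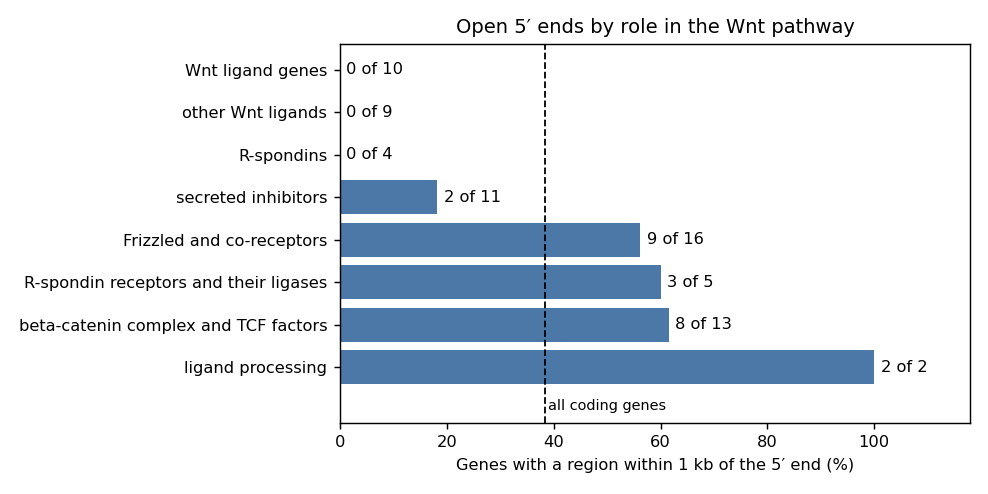
Share of genes in each list of the Wnt pathway with an open region within 1 kb of the outermost 5′ end (%, from 0), with the number of genes beside each bar. The dashed line marks 38.3% of all protein-coding genes; the bars of both Wnt ligand lists and of the R-spondins are at 0.

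Within 50 kb of the 10 ligand genes lay the 5′ ends of 13 other protein-coding genes, of which 3, Arf1, Arf3 and Mrpl55, were open (38.3% of all protein-coding genes). Without Wnt1, Wnt9a and Wnt9b, which are among the 13, these were 3 of 10. For 4 ligand genes, Wnt2, Wnt4, Wnt5a and Wnt7a, no other protein-coding 5′ end lay within that distance.

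The epithelial nature of the organoids, which the sample labels do not state, was looked at in the same way, beside a share of 38.3% of all protein-coding genes with a region at the 5′ end. A region at the 5′ end was found for 6 of 10 epithelial markers (Epcam, Cdh1, Krt5, Krt8, Krt14 and Cldn4), while Krt7, Krt18, Krt19 and Trp63 had none there, although Trp63 had at least 1 inside the gene. Among fibroblast and mesenchymal markers, 0 of 6 had one, among endothelial markers 0 of 6, and among immune markers 1 of 6, Cd68. Regions inside the gene, which 25.6% of all protein-coding genes had, were found for Pdgfra, Pecam1 and Tek. With lists this short, the counts are a description and no test. In bulk organoids, a region that is open in few cells and one that is weakly open in many cannot be told apart, and a promoter open only in a rare cell type may be absent from the list.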

How the data were processed

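Non-irradiated mSGOs of 4 samples were profiled by ATAC-seq. The authors aligned 75 bp paired-end reads and used the ENCODE ATAC-seq pipeline to call peaks (version not given in the sources used here). They describe a consensus file of all organoid samples, whose stated number of peaks matches neither the lines nor the distinct regions of the deposited list, so which samples and step the list stems from is not settled. Per line, the authors deposited a region, an IDR score, the fold at a summit (a ratio of signal to local background) and its −log10 q-value. A −log10 p-value column was not used. Column meanings follow the narrowPeak format. The submitters' processing notes name GRCm39 and HOMER.

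Lines with equal coordinates were joined into 1 region carrying the values of its strongest summit by q-value. The build was read from the values: a midpoint lay within 1 kb of 38.3% of 21436 protein-coding 5′ ends of GRCm38.p6, of 3.35 to 4.66% after shifts of 2 to 100 kb, and of 5.03% of 21738 ends of GRCm39 (GENCODE M39). GRCm38 was used. Strand came from the RefSeq promoter table for 17491 genes and from GENCODE by name and chromosome for 3945, including Wnt5a, Wnt7b and Wnt10a; no GRCm39 coordinate was used otherwise. Of 21883 protein-coding genes, those without a strand were left out.

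Regions were classed by midpoint as at the 5′ end (within 1 kb), in the gene, or outside it within 50 kb. No test was run, because the list has no values per sample. The members and lists were chosen with earlier results of these data known. Genes named in pathway lists are those with the highest fold at the 5′ end. Regions named by rule are the highest in fold in each ligand gene and flank. Other regions, closed genes, the open Lrp6, Ror1 and Tcf7l1 and the printed promoters were chosen after their values were seen. Alternatives were the distances, stricter regions and other starts, the last of these chosen after seeing the data. The counting was tested on simulated data. Sequences of the regions were not analysed here. Analyses used Python 3.11.15, numpy 2.4.6, pandas 2.3.3 and matplotlib 3.10.9.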

Additional observations from a re-analysis of the deposited data

How the results depend on the processing

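Of 24 recomputed counts, 12 stayed within 1.5 times the reported value; the count at 5′ ends of GRCm39, a build the list does not match, is left out of these. The count of ligand genes with a region at the 5′ end stayed 0 within 500 bp, with any base of a region within 1 kb, at either gene end, in the 16006 regions with the lowest q-values, at an IDR score of 1000 and at RefSeq starts within 1 kb. It became 1 within 2 kb of the outermost 5′ end (Wnt7b) and 1 within 2 kb of RefSeq starts (Wnt6), the latter chosen after seeing the data. Under the q-value and IDR limits, only 25.9% and 24.0% of all protein-coding genes kept an open 5′ end, against 38.3% in the full list. A ligand count of 0 under these limits therefore says less than the 0 in the full list. Ligand genes with a region inside fell from 3 to 0 among the regions with the lowest q-values and to 0 at an IDR score of 1000, and those with a region within 50 kb from 7 to 3 under each; over all protein-coding genes, the shares inside the gene were then 15.2% and 14.0%, and within 50 kb 56.4% and 53.5%. The number of distinct regions, 20, was 40 as lines, 3 among the lowest q-values, 3 at an IDR score of 1000, 13 within 20 kb, 42 within 100 kb, and 10 when only regions nearest to the 5′ end of a gene among the 10 were kept; these sets are larger or smaller by construction. No paired analysis was possible because the list holds no values per sample, and for the same reason no replicate could be left out. Sample depth is unknown and the list holds no IDR score under 540, and both limit every statement that a region was not found.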
